A study of Mus musculus with 6 samples.

Results

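Matrix metalloproteinases (MMPs), the ADAM and ADAMTS proteases, and the tissue inhibitors of metalloproteinases (TIMPs) were followed across 3 mouse embryonic fibroblast (MEF) lines. The members were all genes whose mouse symbol is Mmp, Adam or Adamts followed by a number, with one letter allowed after an Mmp or Adam number, and Timp1 to Timp4. The rule used no measured value and found 80 of 27179 genes, namely 23 Mmp, 4 Timp, 34 Adam and 19 Adamts genes. Of these, 69 had a count in at least 1 library, 11 (Mmp20 and 10 Adam genes) were at 0 in all libraries, and 33 reached the mean of 100 normalized counts required for testing. The tested genes were 10 Mmp, 3 Timp, 10 Adam and 10 Adamts genes.

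MMPs are zinc proteases that cut collagens, laminins, fibronectin and many other matrix and cell surface proteins. Most are secreted as inactive pro-enzymes, and the membrane-type MMPs are held at the cell surface. ADAMs are membrane proteins, and those with an active protease site release the outer parts of receptors, growth factors and adhesion proteins. ADAMTS enzymes are secreted and trim procollagens, proteoglycans such as versican and aggrecan, and microfibril proteins. TIMPs bind the active sites of these enzymes. Fibroblasts are a main source of all of these groups in connective tissue.

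Poly-A RNA was sequenced from immortalized MEF lines of C57BL/6 background that lack parts of the circadian feedback loops, with 2 libraries from separate RNA preparations for each of 3 lines. Cry/Per_KO lacks Cry1, Cry2, Per1 and Per2. Cry/Per/Nr1d_KO lacks those genes and also Nr1d1 and Nr1d2, and is 1 clone obtained from the Cry/Per_KO line with lentiviral CRISPR constructs. Per/Nr1d_KO lacks Per1, Per2, Nr1d1 and Nr1d2 and is a line of its own. Loss of Per1 and Per2 was thus common to all groups, no line had an intact clock, and the cells were grown in serum-containing medium without treatment or synchronization. With 1 line per genotype, the genotype and other differences between the lines cannot be told apart. The p-values below measure only the spread between RNA preparations of a line.

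The labels of 4 libraries go against other information in the deposit. For Cry/Per_KO and Cry/Per/Nr1d_KO, the name of each deposited count set gives the genotype that the label gives to the other pair. Arntl, a gene that NR1D proteins repress, had 2176 and 2208 normalized counts where the label was Cry/Per_KO and 1192 and 1171 where it was Cry/Per/Nr1d_KO, against 2493 and 2455 in Per/Nr1d_KO. That order goes against the labels, since the line labelled as lacking Nr1d1 and Nr1d2 had the lower level. The other 6 clock genes examined, all of them mutated in at least 1 line, had counts in every library, and all 6 were also higher where the label was Cry/Per_KO than where it was Cry/Per/Nr1d_KO. Nr1d1 was at 9337 and 9249 under the first label and 3158 and 3146 under the second, Nr1d2 at 8262 and 8008 against 4881 and 5506, Cry1 at 5323 and 5478 against 1699 and 1724, and Per1 at 5644 and 5793 against 3066 and 3062. The names of the count sets and the Arntl levels thus both go with exchanged labels. Groups are still called by the labels given to them, and every group name below is to be read with this in mind. If the labels were exchanged, the first comparison below would change sign, and the comparisons of Per/Nr1d_KO with each of the other lines would trade places.

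Library totals ran from 53764390 to 85927236 counts, and the 80 members took between 0.445% and 0.518% of the counts of a library. The common biological coefficient of variation was 0.0393. Of 10 fibroblast markers, 7 were at 100 or more normalized counts in all libraries, while Thy1 and Lum were under 10 in all. Summed levels of the fibroblast markers ran from 837071 to 1723078 normalized counts and were highest in Per/Nr1d_KO, mostly through Fn1, Col1a1 and Col1a2. Col3a1 was also highest there, at 42810 and 43797 against 289 to 836 in the other lines. Pdgfra, Pdgfrb and Vim were lowest there. Pdgfra was at 4140 and 4148 against 9673 to 12743 in the other lines. Pdgfrb was at 6713 and 6587 against 16251 to 17166, and Vim at 83457 and 87331 against 130675 to 159310. Dcn, at 90.0 and 87.6, lay between labelled Cry/Per_KO (43.4 and 61.9) and labelled Cry/Per/Nr1d_KO (139 and 127). The part of these markers in the results was not tested. Sums for other cell types were 26.5 to 218 for epithelial, 83.5 to 226 for endothelial, 25.5 to 110 for skeletal muscle and 107 to 184 for germ cell markers. The leukocyte and macrophage markers summed to 886 to 1848, mostly from Cd14 and Cd68, with Ptprc and Adgre1 at no more than 3.94. In bulk RNA of this kind, fewer cells of a type and less RNA per cell cannot be told apart.

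A gene was called where edgeR's quasi-likelihood test gave a Benjamini-Hochberg adjusted p under 0.05 and the log2 difference exceeded 0.81 in either direction. For Cry/Per_KO relative to Cry/Per/Nr1d_KO as labelled, 12 of the 33 tested members were called (36.4%), 5 higher and 7 lower, where 16.8% of all 11934 genes tested were called (7.86% higher, 8.95% lower). For Per/Nr1d_KO relative to labelled Cry/Per/Nr1d_KO, 20 members were called (60.6%), 12 higher and 8 lower, against 20.7% of all genes (11.3% higher, 9.35% lower). For Per/Nr1d_KO relative to labelled Cry/Per_KO, 22 members were called (66.7%), 13 higher and 9 lower, against 29.0% of all genes (15.2% higher, 13.8% lower). In all, 26 members were called in at least 1 comparison, a description only, since the matching share of all genes is not given. The median log2 difference over the tested members was 0.11, 0.44 and 0.23 in these 3 comparisons, where the median over all genes tested was -0.00, 0.01 and 0.03. An adjusted p under 0.05 alone was reached by 29, 32 and 31 of the 33 members, against 76.4%, 75.8% and 82.1% of all genes.

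Both comparisons with Per/Nr1d_KO share its 2 libraries, so calls made in both are not independent and are listed as a description. Called higher in Per/Nr1d_KO in both were Mmp2, Mmp9, Mmp14, Mmp15, Timp1, Adam1a, Adamts2, Adamts5 and Adamts6. Of these, Mmp9 and Mmp15 passed the filter for testing only through their levels in Per/Nr1d_KO. Mmp3, Mmp16, Timp3, Adam22, Adam23, Adamts9 and Adamts14 were called lower in both. These lists are the same whichever way the other labels are read. The highest mean of the 3 lines lay in Per/Nr1d_KO for 18 of the 33 tested members. It lay in labelled Cry/Per_KO for 10 and in labelled Cry/Per/Nr1d_KO for 5. The same tally over all genes is not given, so this one is a description only.

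**Figure D1:**
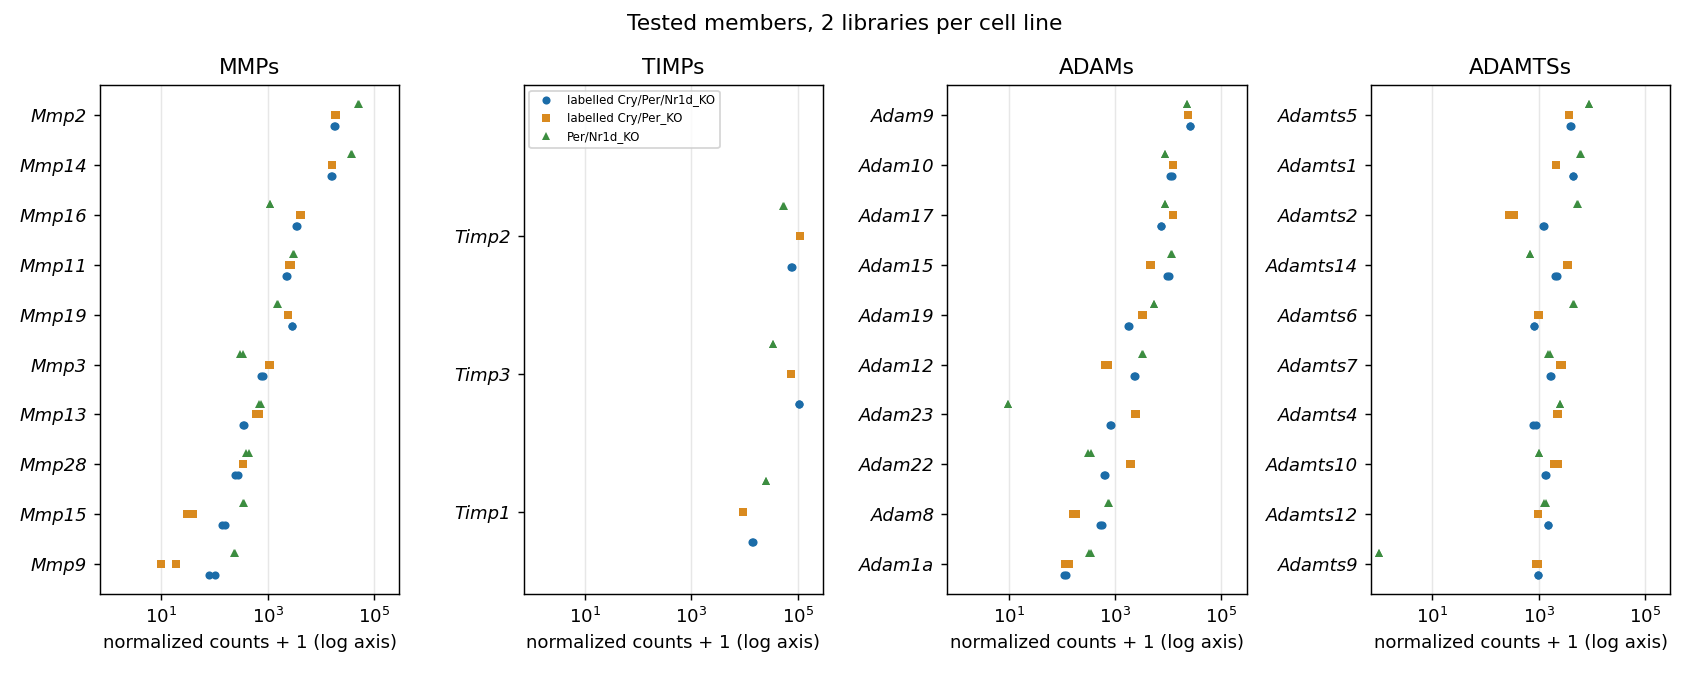
Normalized counts plus 1 (log axis) of the 33 tested members, 1 panel per subfamily, with 1 point per library and the 3 lines offset vertically within each row. The Per/Nr1d_KO libraries lie to the right for Mmp2, Mmp14, Timp1, Adamts2 and Adamts6 and far to the left for Adam23 and Adamts9, whose Per/Nr1d_KO points lie at 8.87 and 8.68 and at 0 normalized counts.

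TIMPs were among the most abundant members, and their balance differed between the lines. Timp1 (chrX:20870166-20874737, mm10 coordinates as for all genes here) was at 25238 and 25285 normalized counts in Per/Nr1d_KO, at 14265 and 14044 in labelled Cry/Per/Nr1d_KO and at 9542 and 9315 in labelled Cry/Per_KO. The groups did not overlap, and Per/Nr1d_KO was highest. Its level there was higher by 0.84 on the log2 scale (SE 0.0407, adjusted p = 3.9e-11 in edgeR) than in labelled Cry/Per/Nr1d_KO and by 1.42 (SE 0.0414, adjusted p = 5.5e-14) than in labelled Cry/Per_KO.

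Timp3, an inhibitor that binds to the matrix and also acts on ADAM17 and on the aggrecan-cleaving ADAMTS enzymes, was lowest where Timp1 was highest. It lies at chr10:86300412-86349505 and was at 34847 and 34046 normalized counts in Per/Nr1d_KO, 75694 and 74310 in labelled Cry/Per_KO and 103945 and 107700 in labelled Cry/Per/Nr1d_KO. Timp3 was called lower in Per/Nr1d_KO in both of its comparisons, by log2 values of -1.62 (SE 0.0442, adjusted p = 3.2e-14 in edgeR) against labelled Cry/Per/Nr1d_KO and -1.12 (SE 0.0438, adjusted p = 2e-12) against labelled Cry/Per_KO. Syn3 lies on the other strand over 21.3% of the exon bases of Timp3, and whether the counting used strand is not given in the sources used here.

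Timp2, which inhibits MMPs and with MMP14 also takes part in activating pro-MMP2, was at 112391 and 112669 normalized counts in labelled Cry/Per_KO, 75365 and 76623 in labelled Cry/Per/Nr1d_KO and 56083 and 53214 in Per/Nr1d_KO. It was called lower only in Per/Nr1d_KO relative to labelled Cry/Per_KO, at a log2 difference of -1.04 (SE 0.0446, adjusted p = 6e-12 in edgeR). Timp4 was at 0 in 5 libraries and at 1.27 normalized counts in 1 library of Per/Nr1d_KO.

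Levels can be set side by side between genes only per length. Per kilobase of exon, labelled Cry/Per_KO held 28884 normalized counts of Timp2, 10618 of Timp1 and 9210 of Timp3, followed by 5672 of Adam9 and 5646 of Mmp2. In labelled Cry/Per/Nr1d_KO the same 3 TIMPs came first, at 19506 for Timp2, 15940 for Timp1 and 12994 for Timp3. Per/Nr1d_KO had 28448 of Timp1, 15283 of Mmp2, 14027 of Timp2 and 6253 of Mmp14 per kilobase, and Timp3 came after Adam9 (5531) at 4230. The order of TIMPs and gelatinase therefore differed in Per/Nr1d_KO on this scale.

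Among the MMPs, 3 were called in Cry/Per_KO relative to Cry/Per/Nr1d_KO as labelled (1 higher, 2 lower), 8 in Per/Nr1d_KO relative to labelled Cry/Per/Nr1d_KO (5 higher, 3 lower) and 6 in Per/Nr1d_KO relative to labelled Cry/Per_KO (4 higher, 2 lower), of 10 tested, where the shares of all genes called were 16.8%, 20.7% and 29.0%. Mmp2, the gelatinase that cuts denatured and basement membrane collagen (chr8:92827290-92853421), was at 52013 and 51026 normalized counts in Per/Nr1d_KO. It was at 18885 and 19180 in labelled Cry/Per_KO and 18763 and 17895 in labelled Cry/Per/Nr1d_KO. Only the Per/Nr1d_KO libraries stood apart. Their level was 2.81-fold that of labelled Cry/Per/Nr1d_KO (log2 1.49, SE 0.0432, adjusted p = 6.6e-14 in edgeR) and 2.71-fold that of labelled Cry/Per_KO (log2 1.44, SE 0.0432, adjusted p = 8.1e-14), whereas the other lines differed by 0.05 (SE 0.0427, adjusted p = 0.26).

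Mmp14, the membrane-type enzyme that cuts collagen at the cell surface and activates pro-MMP2, had the same order of lines. It was at 38202 and 36338 normalized counts in Per/Nr1d_KO, 16380 and 16588 in labelled Cry/Per_KO and 16067 and 15289 in labelled Cry/Per/Nr1d_KO. Mmp14 was higher in Per/Nr1d_KO by log2 values of 1.25 (adjusted p = 8.9e-13 in edgeR) and 1.18 (adjusted p = 1.4e-12) against labelled Cry/Per/Nr1d_KO and labelled Cry/Per_KO. The median gene of chromosome 14, where Mmp14 lies, was itself higher by 0.52 and 0.62 in these comparisons, and with that median subtracted the values of 0.73 and 0.56 did not pass the limit on the fold.

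Mmp15 and Mmp16, other membrane-type enzymes, had different orders. Mmp15 was at 364 and 342 normalized counts in Per/Nr1d_KO, 140 and 159 in labelled Cry/Per/Nr1d_KO and 30.1 and 38.3 in labelled Cry/Per_KO, and was called in all 3 comparisons. Mmp16 was lowest in Per/Nr1d_KO, at 1127 and 1116, against 4173 and 4019 in labelled Cry/Per_KO and 3415 and 3602 in labelled Cry/Per/Nr1d_KO. The log2 difference of Per/Nr1d_KO from labelled Cry/Per_KO was 3.35 for Mmp15 (SE 0.162, adjusted p = 2.6e-11 in edgeR). For Mmp16 it was -1.87 (adjusted p = 8.6e-14 in edgeR). Mmp15, with a mean of 179 over all libraries, passed the filter for testing only through Per/Nr1d_KO, where its mean was 353. Labelled Cry/Per/Nr1d_KO and labelled Cry/Per_KO, at means of 149.5 and 34.2, together averaged under the filter. The same calls of Mmp15 were made with genes of a mean of at least 10 tested.

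Mmp9, the other gelatinase, was a low-count gene with large differences. It was at 241 and 230 normalized counts in Per/Nr1d_KO, 103 and 77.7 in labelled Cry/Per/Nr1d_KO and 17.8 and 8.84 in labelled Cry/Per_KO. The groups did not overlap. In labelled Cry/Per/Nr1d_KO and labelled Cry/Per_KO, however, the libraries of a line differed by a larger factor for Mmp9 than for the abundant members. On the log2 scale, Per/Nr1d_KO was higher than labelled Cry/Per_KO by 4.15 (SE 0.242, adjusted p = 2.7e-10 in edgeR). It was higher than labelled Cry/Per/Nr1d_KO by 1.36 (SE 0.161, adjusted p = 1.8e-06 in edgeR). Labelled Cry/Per_KO was lower than labelled Cry/Per/Nr1d_KO, at -2.80 (SE 0.29, adjusted p = 4.5e-07 in edgeR). Mmp9, with a mean of 113 over all libraries, passed the filter for testing only through Per/Nr1d_KO. The line means were 235 there, 90.4 in labelled Cry/Per/Nr1d_KO and 13.3 in labelled Cry/Per_KO. Its entry to the test thus depended on the line called higher. The same calls were made with genes of a mean of at least 10 tested.

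Of the remaining tested MMPs, Mmp19, an enzyme with broad tissue expression, was at 1550 and 1523 normalized counts in Per/Nr1d_KO. It was at 2854 and 2863 in labelled Cry/Per/Nr1d_KO and at 2454 and 2369 in labelled Cry/Per_KO. Mmp19 was called lower in Per/Nr1d_KO than in labelled Cry/Per/Nr1d_KO (log2 -0.90, adjusted p = 8.1e-10 in edgeR). Its difference from labelled Cry/Per_KO was within the limit on the fold (log2 -0.65, adjusted p = 3.1e-08 in edgeR). Tmem198b lies on the other strand over 28.3% of the exon bases of Mmp19. Mmp11, a stromelysin that is activated inside the cell, ranged from 2222 to 3136 and Mmp28, or epilysin, from 245 to 442 over the 6 libraries. Neither passed the limit on the fold in any comparison.

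A cluster of 10 MMP genes on chromosome 9, from Mmp13 to Mmp7, encodes secreted collagenases, stromelysins, macrophage elastase and matrilysin. Many of these genes are known targets of AP-1, the FOS and JUN transcription factors that respond to growth factors, which bind the letters TGANTCA. These letters, which read alike on both strands, were found in 8 of the 10 promoters of the cluster (80%), taken as 250 bases before to 50 bases after the start. They were found in 13 of the 50 member genes with a RefSeq promoter (26%) and in 3 of the 22 tested ones (13.6%). Of all 27025 genes with a promoter, 8.97% held them. Windows of 80 bases, from 100 to 21 bases before the start in GRCm38.p6 and written 5′ to 3′ along the gene, are printed for 5 of these genes, which had counts in these cells, with the AP-1 letters in capitals.
Mmp13 (chr9:7272414-7272493, plus strand): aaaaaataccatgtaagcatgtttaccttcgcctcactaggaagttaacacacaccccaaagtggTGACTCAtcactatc
Mmp12 (chr9:7347274-7347353, plus strand): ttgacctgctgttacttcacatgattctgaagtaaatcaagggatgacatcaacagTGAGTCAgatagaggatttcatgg
Mmp1b (chr9:7388047-7388126, minus strand): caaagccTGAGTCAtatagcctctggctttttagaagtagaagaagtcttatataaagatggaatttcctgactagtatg
Mmp3 (chr9:7445722-7445801, plus strand): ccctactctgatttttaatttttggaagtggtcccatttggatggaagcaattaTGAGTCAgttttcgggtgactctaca
Mmp10 (chr9:7502242-7502321, plus strand): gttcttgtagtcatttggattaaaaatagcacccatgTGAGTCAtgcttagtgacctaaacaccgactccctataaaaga

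The AP-1 letters begin 35 bases before the start in Mmp13, 44 in Mmp12, 46 in Mmp3, 63 in Mmp10 and 93 in Mmp1b. A match of letters is a description and not a measured binding site. Mmp12, macrophage elastase, had no more than 13.4 normalized counts in any library and is not compared.

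Mmp3, stromelysin-1, was at 1097 and 1071 normalized counts in labelled Cry/Per_KO, 824 and 760 in labelled Cry/Per/Nr1d_KO and 295 and 342 in Per/Nr1d_KO. It was called lower in Per/Nr1d_KO against both, by log2 values of -1.75 (SE 0.0901, adjusted p = 5.6e-11 in edgeR) and -1.30 (SE 0.0917, adjusted p = 3.9e-09). Mmp13, collagenase-3, was at 611 and 693 in labelled Cry/Per_KO and 758 and 675 in Per/Nr1d_KO, which overlapped, and at 337 and 361 in labelled Cry/Per/Nr1d_KO. It was called higher in labelled Cry/Per_KO (log2 0.91, adjusted p = 8e-07 in edgeR) and in Per/Nr1d_KO (log2 1.03, adjusted p = 1.4e-07) than in labelled Cry/Per/Nr1d_KO.

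Mmp10, stromelysin-2, was under the filter for testing and highest in labelled Cry/Per/Nr1d_KO, at 112 and 122 normalized counts, against 61.2 and 54.0 in labelled Cry/Per_KO and 24.1 and 15.8 in Per/Nr1d_KO. Mmp1b, a rodent counterpart of interstitial collagenase, was at 25.6 and 19.6 in labelled Cry/Per_KO, 13.3 and 16.7 in labelled Cry/Per/Nr1d_KO and 0 in both Per/Nr1d_KO libraries. With genes of a mean of at least 10 tested, Mmp10 was called in all 3 comparisons. Mmp1b was called lower in Per/Nr1d_KO than in labelled Cry/Per/Nr1d_KO and labelled Cry/Per_KO (adjusted p = 3.8e-05 and 3.5e-06 in edgeR). Mmp1b, with a mean of 12.5 over all libraries, passed this lower filter only through labelled Cry/Per_KO, where its mean was 22.6. Its entry to that test thus depended on a line called higher. With a floor of 3 counts per library, Mmp1b in Per/Nr1d_KO was at least 7.33-fold lower than in labelled Cry/Per_KO and at least 4.86-fold lower than in labelled Cry/Per/Nr1d_KO, and the difference between those 2 lines did not pass the test (log2 0.60, SE 0.388, adjusted p = 0.18 in edgeR). Mmp13 likewise differed between Per/Nr1d_KO and labelled Cry/Per_KO by 0.13 (adjusted p = 0.22). The median gene of chromosome 9 differed by 0.38, -0.46 and -0.84 on the log2 scale in the 3 comparisons, and with it subtracted the difference of Mmp13 between labelled Cry/Per_KO and labelled Cry/Per/Nr1d_KO was 0.53 and did not pass the limit on the fold. Its difference between Per/Nr1d_KO and labelled Cry/Per_KO went from 0.13 to 0.96 with the median subtracted, past that limit, although the unsubtracted value did not pass the test. Mmp10 in Per/Nr1d_KO relative to labelled Cry/Per_KO went from -1.59 to -0.76 and no longer passed the limit. The differences of Mmp3 in Per/Nr1d_KO became -0.84 from labelled Cry/Per/Nr1d_KO and -0.92 from labelled Cry/Per_KO, still past that limit. Of the 50-base stretches of Mmp3, 8.39% are also found in Mmp10, so their counts are uncertain to that extent. For Mmp1b, 19.7% of the stretches are shared, most with Mmp1a, and Mmp12 lies on the other strand over 10.8% of the exon bases. The low counts of Mmp1b carry this doubt too.

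**Figure D2:**
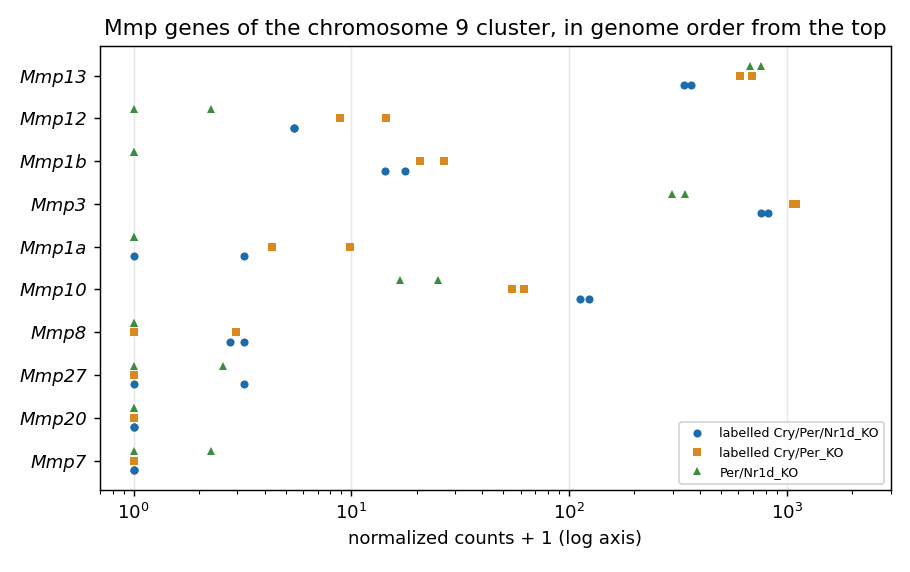
Normalized counts plus 1 (log axis) of the chromosome 9 MMP cluster in gene order, 1 point per library. Mmp3 was lowest in Per/Nr1d_KO at 295 and 342 normalized counts, and Mmp13 was lowest in labelled Cry/Per/Nr1d_KO at 337 and 361.

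Clock-related letters were also searched in the promoters on both strands. The E-box CACGTG, which CLOCK and BMAL1 bind, was found in 5 of the 50 members (10%), against 8.09% of all genes, with Adam10 and Adam19 the tested members that hold it. The NR1D response element was found in no member and in 0.459% of all genes.

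Adam9, Adam10 and Adam17, widely expressed ADAMs with a protease site, were not called in any comparison. Adam17, the sheddase of tumour necrosis factor and of EGF receptor ligands, was at 12524 and 12443 normalized counts in labelled Cry/Per_KO, 7400 and 7459 in labelled Cry/Per/Nr1d_KO and 8804 and 8730 in Per/Nr1d_KO. The difference between labelled Cry/Per_KO and labelled Cry/Per/Nr1d_KO was 1.68-fold (log2 0.75, adjusted p = 3.8e-10 in edgeR), just under the limit on the fold. Adam10, the sheddase of Notch and cadherins, ranged from 8625 to 12455 and Adam9 from 22521 to 25853, and neither was called in any comparison. The log2 difference of Adam10 in Per/Nr1d_KO from labelled Cry/Per_KO was -0.52 (adjusted p = 3.3e-08 in edgeR), within the limit on the fold. With the chromosome 9 median of -0.84 subtracted it turned to 0.32, so the direction of Adam10 depends on that step. The value of Adam17 in labelled Cry/Per_KO relative to labelled Cry/Per/Nr1d_KO was 0.40 with the chromosome 12 median subtracted.

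Adam8, Adam12 and Adam15 shared an order, lowest in labelled Cry/Per_KO. Adam12, one of the meltrins that are known from muscle and mesenchyme, was at 729 and 645 normalized counts in labelled Cry/Per_KO, 2326 and 2273 in labelled Cry/Per/Nr1d_KO and 3202 and 3301 in Per/Nr1d_KO. Adam8 was at 179 and 159, 576 and 522, and 777 and 750 in the same order of lines. Both were called lower in labelled Cry/Per_KO than in labelled Cry/Per/Nr1d_KO, by log2 values of -1.75 for Adam12 (adjusted p = 9e-12 in edgeR) and -1.71 for Adam8 (adjusted p = 1.5e-09). Per/Nr1d_KO was above labelled Cry/Per_KO by 2.25 for Adam12 and 2.18 for Adam8 (adjusted p = 8.7e-14 and 2.2e-11 in edgeR).

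Adam15 was at 4627 and 4723 normalized counts in labelled Cry/Per_KO, 10197 and 9419 in labelled Cry/Per/Nr1d_KO and 11950 and 11424 in Per/Nr1d_KO. It was called in both comparisons with labelled Cry/Per_KO (log2 -1.07 and 1.32, adjusted p = 5.4e-11 and 1.3e-12 in edgeR). The median gene of chromosome 3, where Adam15 lies, moved by -0.65 and 0.88 in these comparisons, and the values with it subtracted, -0.42 and 0.44, did not pass the limit on the fold. 4731419I09Rik lies on the other strand over 20.6% of the exon bases of Adam15, and 15.4% of the 50-base stretches of Adam15 are shared with other genes. Adam19, another meltrin, was highest in Per/Nr1d_KO at 5497 and 5474, against 3161 and 3324 in labelled Cry/Per_KO and 1804 and 1763 in labelled Cry/Per/Nr1d_KO. It was called higher than in labelled Cry/Per/Nr1d_KO in both other lines, by 0.86 and 1.62 on the log2 scale (adjusted p = 9.4e-10 and 2e-13 in edgeR).

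Adam22 and Adam23 lack a protease site and are known as neuronal receptors of LGI proteins, and both were called in all 3 comparisons. Adam23 (chr1:63445717-63596111) was at 2464 and 2363 normalized counts in labelled Cry/Per_KO, 790 and 820 in labelled Cry/Per/Nr1d_KO and 8.87 and 8.68 in Per/Nr1d_KO. Each line stood far from the others. The level was 272-fold lower in Per/Nr1d_KO than in labelled Cry/Per_KO (log2 -8.09, SE 0.133, adjusted p = 6.5e-17 in edgeR) and 90.6-fold lower than in labelled Cry/Per/Nr1d_KO (log2 -6.50, SE 0.152, adjusted p = 4.6e-15).

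Adam22 had the same order of lines with smaller differences, at 1978 and 1887 normalized counts in labelled Cry/Per_KO, 621 and 643 in labelled Cry/Per/Nr1d_KO and 308 and 348 in Per/Nr1d_KO. In labelled Cry/Per_KO relative to labelled Cry/Per/Nr1d_KO, the log2 difference was 1.61 for Adam22 and 1.58 for Adam23 (adjusted p = 5.6e-11 and 2e-11 in edgeR). Adam1a, known from sperm, was at 323 and 358 in Per/Nr1d_KO and between 110 and 136 in the other libraries. Its count is uncertain, since 77.8% of its 50-base stretches are shared, most with Gm42878, which covers 63.7% of its exon bases on the same strand.

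**Figure D3:**
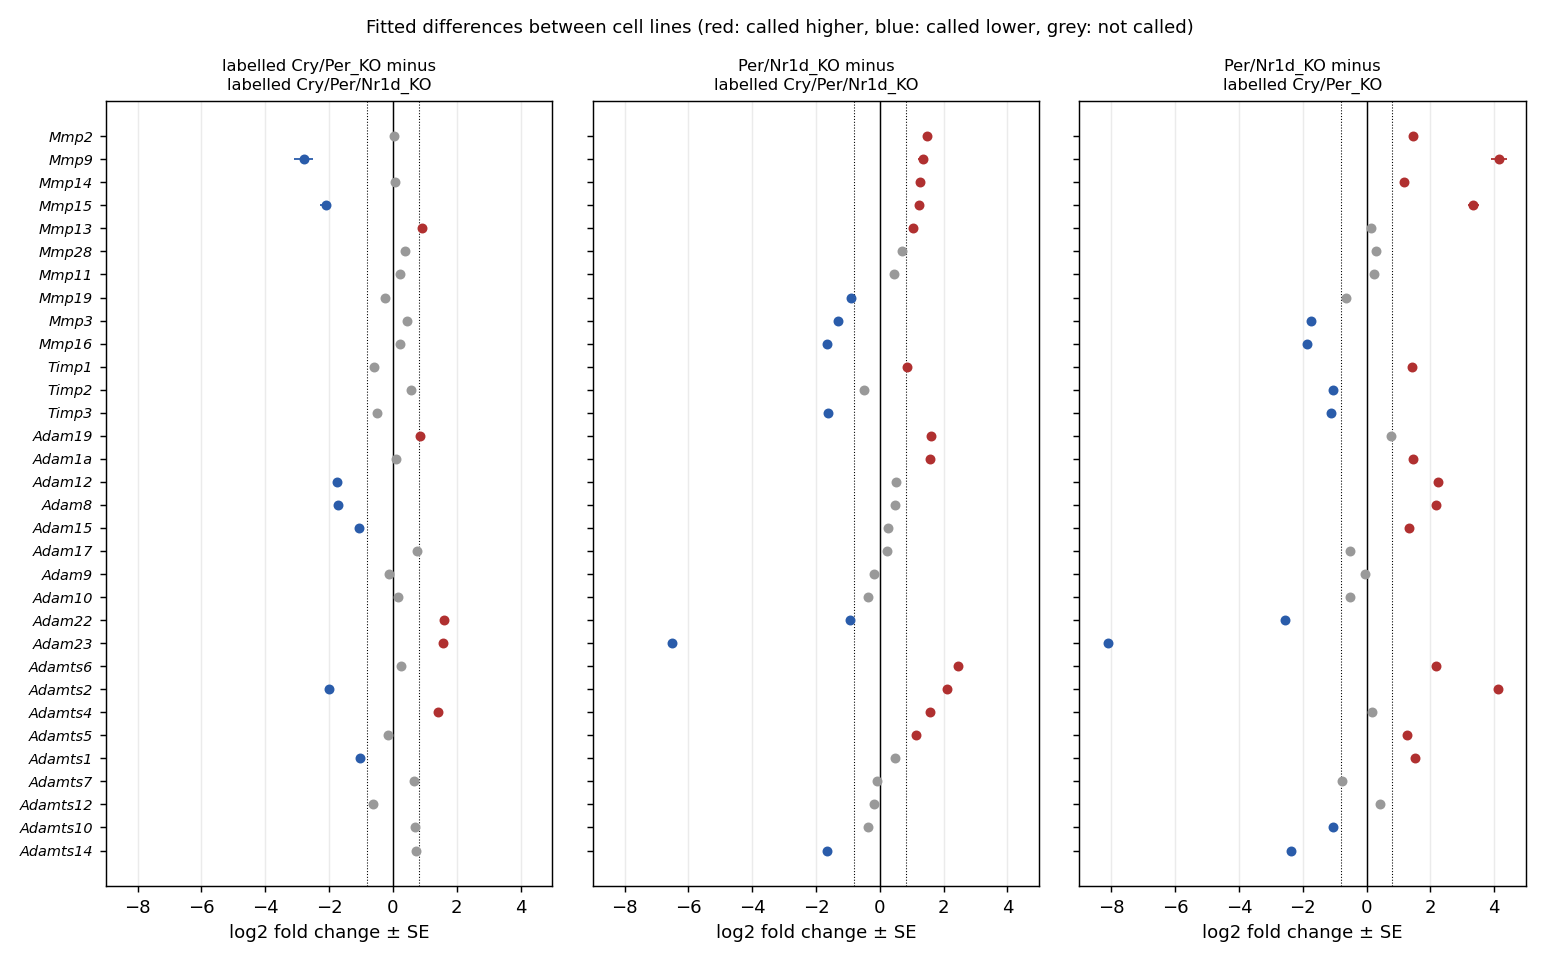
Log2 differences of the tested members in the 3 comparisons between lines, with bars of 1 standard error from edgeR's fit. Adamts9 is left out because its Per/Nr1d_KO libraries were at 0, and the widest difference drawn is that of Adam23, at -8.09 for Per/Nr1d_KO relative to labelled Cry/Per_KO.

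ADAMTS enzymes that remove the N-propeptide of fibrillar procollagens differed in opposite directions. Adamts2 (chr11:50602085-50807573) was at 5526 and 5183 normalized counts in Per/Nr1d_KO, 1259 and 1195 in labelled Cry/Per/Nr1d_KO and 275 and 340 in labelled Cry/Per_KO. It was called in all 3 comparisons, and Per/Nr1d_KO was 17.3-fold above labelled Cry/Per_KO (log2 4.11, SE 0.0838, adjusted p = 7.9e-16 in edgeR). Adamts14 (chr10:61197112-61273419) was at 683 and 677 in Per/Nr1d_KO, 2216 and 2038 in labelled Cry/Per/Nr1d_KO and 3387 and 3579 in labelled Cry/Per_KO, and was called lower in Per/Nr1d_KO against both (log2 -1.65 and -2.36, adjusted p = 4.7e-12 and 4e-14 in edgeR).

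The third enzyme of this kind, Adamts3, was under the filter for testing. It was at 0 in both labelled Cry/Per_KO libraries, 75.5 and 83.3 in labelled Cry/Per/Nr1d_KO and 90.0 and 83.6 in Per/Nr1d_KO. A count of 0 allows up to 3 counts, and with this floor in each of the 2 libraries Adamts3 in labelled Cry/Per_KO was at least 27.6-fold lower than in Per/Nr1d_KO and at least 25.3-fold lower than in labelled Cry/Per/Nr1d_KO. Adamts2 and Adamts14 had counts in all 3 lines, and only Adamts3 was at 0 in one of them.

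Of the ADAMTS enzymes that cut versican and aggrecan, Adamts5 was at 8909 and 8746 normalized counts in Per/Nr1d_KO and between 3626 and 4088 in the other libraries. Its log2 difference was 1.15 from labelled Cry/Per/Nr1d_KO and 1.28 from labelled Cry/Per_KO (adjusted p = 4.1e-12 and 9.2e-13 in edgeR). Adamts1 was at 6045 and 6230 in Per/Nr1d_KO, 4425 and 4408 in labelled Cry/Per/Nr1d_KO and 2143 and 2142 in labelled Cry/Per_KO. Adamts1 was called in both comparisons with labelled Cry/Per_KO, which was the lowest line (log2 -1.04 and 1.52, adjusted p = 5.1e-11 and 1.5e-13 in edgeR).

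Adamts4 was instead lowest in labelled Cry/Per/Nr1d_KO, at 885 and 780 normalized counts, against 2214 and 2263 in labelled Cry/Per_KO and 2536 and 2501 in Per/Nr1d_KO. It was called higher in both of the latter lines (log2 1.42 and 1.59, adjusted p = 8.2e-11 and 7.8e-12 in edgeR), which differed from each other by 0.17 (adjusted p = 0.022), a value that turned to -0.09 with the chromosome 1 median subtracted.

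Adamts9 (chr6:92772699-92944450), a conserved member of this group, was at 967 and 883 normalized counts in labelled Cry/Per_KO, 985 and 946 in labelled Cry/Per/Nr1d_KO and 0 in both Per/Nr1d_KO libraries. The first 2 lines did not differ beyond their spread (log2 -0.06, adjusted p = 0.48 in edgeR). With a floor of 3 counts per library, Adamts9 in Per/Nr1d_KO was at least 299.8-fold lower than in labelled Cry/Per_KO and at least 313-fold lower than in labelled Cry/Per/Nr1d_KO (adjusted p = 2.6e-14 in both, edgeR).

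Adamts6 and Adamts10, which act on fibrillin microfibrils, differed in opposite directions. Adamts6 (chr13:104286518-104496695) was at 4388 and 4561 normalized counts in Per/Nr1d_KO and between 822 and 988 in the other libraries, log2 differences of 2.44 and 2.19 (adjusted p = 8.2e-15 and 2.1e-14 in edgeR). Adamts10 was at 1022 and 1016 in Per/Nr1d_KO, 1355 and 1289 in labelled Cry/Per/Nr1d_KO and 1926 and 2301 in labelled Cry/Per_KO, and was called lower in Per/Nr1d_KO than in labelled Cry/Per_KO (log2 -1.05, adjusted p = 6.6e-09 in edgeR). Adamts7 and Adamts12, which cut cartilage oligomeric matrix protein, ranged from 1511 to 2774 and from 958 to 1513 and were not called in any comparison.

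The filter left 47 members untested, of which 36 had a count. Adamts16 was at 115 and 104 normalized counts in Per/Nr1d_KO and at no more than 6.66 in any other library. Mmp25, a GPI-anchored enzyme known from leukocytes, was at 144 and 138 in labelled Cry/Per_KO and between 25.3 and 46.9 elsewhere, and Adam5, a testis gene, at 112 and 101 against 26.0 to 44.4. Mmp17 ranged from 41.2 to 81.1, Adam11 from 46.5 to 64.8 and Mmp23 from 18.1 to 78.6. Adam4, Adam21 and Adam32 ranged from 11.8 to 35.5, 8.88 to 22.1 and 16.5 to 32.4, with libraries of different lines overlapping for Adam4 and Adam21. Another 24 members with a count had means under 10, and these data do not compare them. When genes with a mean of at least 10 were tested, 45 members entered and 17, 25 and 31 were called in the 3 comparisons, against 22.4%, 26.5% and 33.8% of all genes. Among these members, Mmp1b passed that filter only through labelled Cry/Per_KO and Adamts16 only through Per/Nr1d_KO, the line where each was highest.

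Adamts9, Adam23, Adamts3 and Adamts16, each with levels near 0 in at least 1 line, were set beside their neighbours along the chromosome, chosen after their values were seen. Next to Adamts9, Prickle2 was at a mean of 314 normalized counts in Per/Nr1d_KO, 1105 in labelled Cry/Per/Nr1d_KO and 2093 in labelled Cry/Per_KO, while Magi1 on the other side was highest in Per/Nr1d_KO at 2289. Near Adam23, Zdbf2, an imprinted gene, was at 1404 in labelled Cry/Per/Nr1d_KO, at 1.42 in Per/Nr1d_KO and at 0 in labelled Cry/Per_KO, whereas Fastkd2 was between 1516 and 2574 in all 3. Near Adamts16, Irx1 and Irx2 were at 0 in Per/Nr1d_KO, where Adamts16 itself was highest, and at 656 to 1618 in the other lines. On one side of Adamts3, Cox18 and Ankrd17 (441 and 519 kb away) had at least 1006 in every line. On the other side, the closer Npffr2 and Gc had means of at most 0.491. Slc4a4, beyond them, was at 609 in Per/Nr1d_KO, 2662 in labelled Cry/Per/Nr1d_KO and 2064 in labelled Cry/Per_KO. Magi1, Irx1 and Irx2 lie 1121, 1176 and 1844 kb from the members they are set beside. All distances are between gene midpoints.

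**Figure D4:**
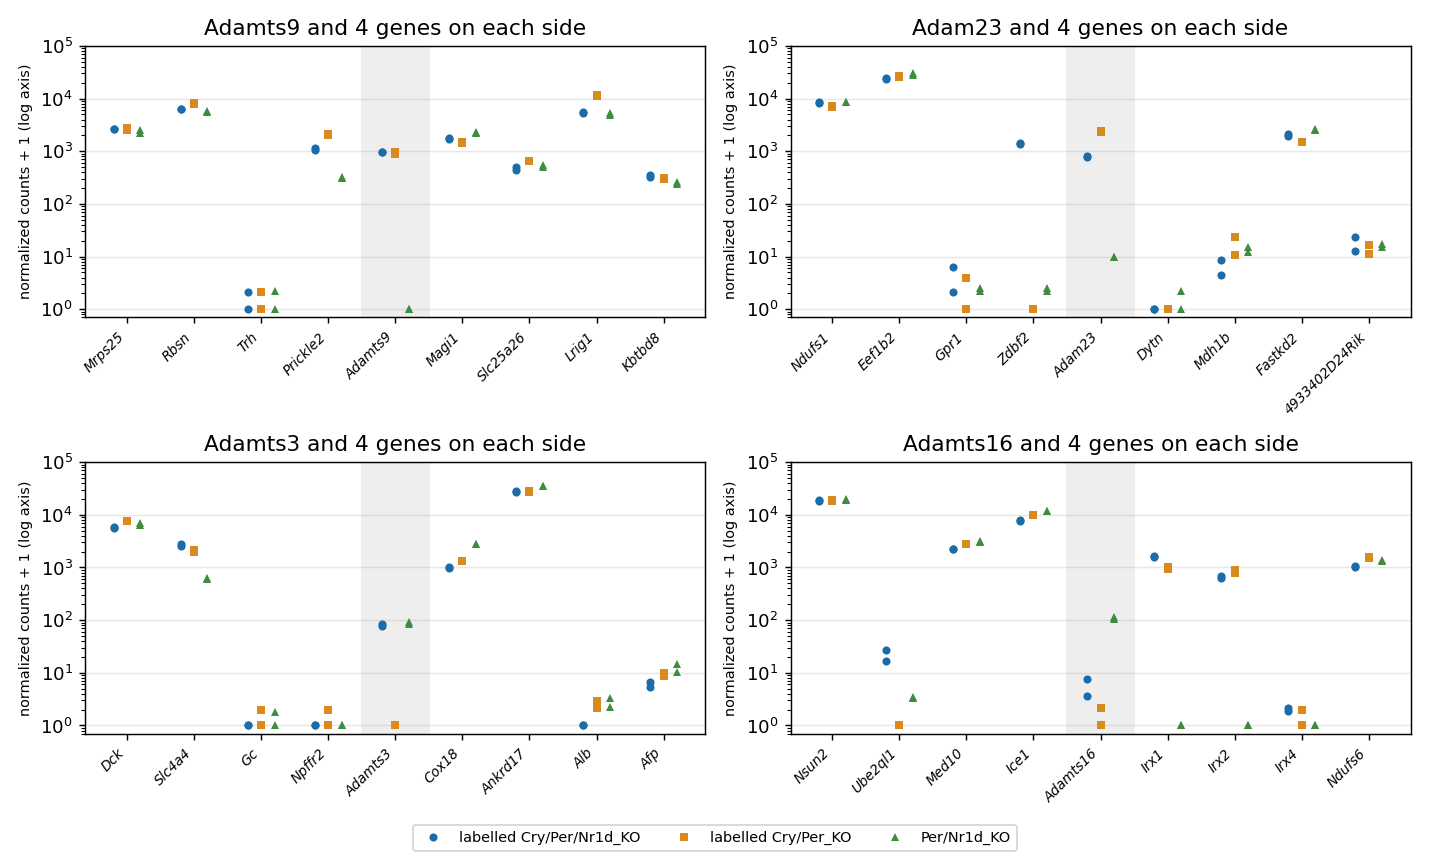
Normalized counts plus 1 (log axis) of Adamts9, Adam23, Adamts3 and Adamts16 (shaded) and the 4 RefSeq genes on each side, 1 point per library. Adamts9 was at 0 in Per/Nr1d_KO while Prickle2 and Magi1 beside it had means of 314 and 2289, and Irx1 and Irx2 were at 0 where Adamts16 was highest.

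Partners of these enzymes were taken from lists of 52 genes, of which 40 were tested: activators, other inhibitors, the plasminogen system, carriers of ADAM10 and ADAM17, shed proteins, ADAMTS-like proteins and matrix proteoglycans. Of the 40, 3 were called higher and 10 lower in Cry/Per_KO relative to Cry/Per/Nr1d_KO as labelled, 11 higher and 9 lower in Per/Nr1d_KO relative to labelled Cry/Per/Nr1d_KO, and 17 higher and 6 lower in Per/Nr1d_KO relative to labelled Cry/Per_KO. The shares of all genes called higher and lower were 7.86% and 8.95%, 11.3% and 9.35%, and 15.2% and 13.8% in these comparisons. Acan and the shed ligands Btc and Tgfa passed the filter for testing only through the line where each was highest. Vcan, which encodes the proteoglycan versican, a substrate of ADAMTS1, ADAMTS4, ADAMTS5 and ADAMTS9, was at 69865 and 69049 normalized counts in Per/Nr1d_KO and between 3889 and 4562 elsewhere. Its log2 difference from labelled Cry/Per/Nr1d_KO was 3.99 (SE 0.0524, adjusted p = 7e-18 in edgeR). Serpine2, protease nexin-1, was at 5.57 and 8.84 in labelled Cry/Per_KO, 1140 and 1122 in labelled Cry/Per/Nr1d_KO and 2439 and 2433 in Per/Nr1d_KO.

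Acan, which encodes aggrecan, was at 0 and 0.982 normalized counts in labelled Cry/Per_KO, 313 and 287 in labelled Cry/Per/Nr1d_KO and 87.5 and 87.6 in Per/Nr1d_KO. Thsd4, an ADAMTS-like microfibril protein, was at 669 and 643 in labelled Cry/Per/Nr1d_KO, 169 and 127 in Per/Nr1d_KO and 61.2 and 54.0 in labelled Cry/Per_KO. Itgb3, an integrin subunit, was at 866 and 879 in Per/Nr1d_KO, 194 and 199 in labelled Cry/Per/Nr1d_KO and 30.1 and 28.5 in labelled Cry/Per_KO. Reck, a membrane inhibitor of MMPs named here after its values were seen, was at 540 and 476 in Per/Nr1d_KO, 1414 and 1382 in labelled Cry/Per/Nr1d_KO and 4015 and 3927 in labelled Cry/Per_KO. Of the 5 genes with the largest differences, Vcan, Itgb3 and Serpine2 were highest in Per/Nr1d_KO, and Acan and Thsd4 in labelled Cry/Per/Nr1d_KO. For Acan, entry to the test and so to these 5 genes depended on its level in labelled Cry/Per/Nr1d_KO.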

How the data were processed

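The authors aligned single-end reads of 50 bases from a stranded poly-A protocol to mm10 (STAR) and assigned them to genes (featureCounts). For each library they deposited raw, unnormalized counts by Entrez Gene ID. Strand and multimapping settings are not given in the sources used here. The authors' deposited DESeq2 (1.22.2) tables of 2 comparisons, with mean, log2 fold change, SE and p-values, were not used.

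Libraries were grouped by the genotype labels. Symbols, positions and promoters were RefSeq's for GRCm38.p6, the assembly of mm10, and matched 25275 of 27179 genes and gave promoters for 50 of 80 members. Exon lengths, overlaps and shared 50-base stretches came from GENCODE vM21. Normalized counts are counts divided by the effective library size (TMM) and multiplied by its mean, 65881749.

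In R 4.3.3, edgeR 4.0.16 (with limma 3.58.1) fitted all 6 libraries with 3 groups by quasi-likelihood, on the 11934 genes that averaged 100 normalized counts or more. P-values were Benjamini-Hochberg adjusted over all of them. The SE is the log2 difference divided by the square root of F. The study used a fold limit of 1.75, which was kept. Each line had 2 libraries, so the spread within a line rests on 2 values. The fit pooled this spread over the lines and moderated it across genes. The floors (3 counts) cover counting error only, while the SE also holds the spread between RNA preparations. No libraries agreed within sampling noise (chi-square per degree of freedom 8.07 to 16.8 within lines).

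Named with values were members called in any comparison, the tested TIMPs, Mmp2, Mmp14, Adam10 and Adam17, untested members with a mean of 10 or a library of 30, and the 3 partner genes with the largest difference per comparison. Marker lists covered fibroblasts and other cell types. Members and lists were chosen with earlier results of these data known. Alternatives were DESeq2 1.42.0, DESeq2 at an adjusted p under 1e-22, its size factors, no filter or a mean of 10, no fold limit, compared groups alone, a replicate block, each library left out, and chromosome medians subtracted. On simulated data with 200 changed genes, edgeR recovered 100 of 100 genes changed 2-fold and 100 of 100 changed 4-fold among 11941, with 0 false calls. Both changes lie past the fold limit of 1.75, so the recovery says little about calls near that limit. Recovery of smaller changes was not tested.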

Additional observations from a re-analysis of the deposited data

How the results depend on the processing

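The counts of called members were 12, 20 and 22 under DESeq2, DESeq2's size factors, the compared groups alone and the replicate block, and none of the 54 called member values changed direction under any alternative. Of the 45 tested member values that were not called, 7 changed sign with chromosome medians subtracted, those of Adam10 in all 3 comparisons, Adamts7 in both with Per/Nr1d_KO, Adamts4 and Adamts6. Without the expression filter, 21, 28 and 34 of 69 members were called in the 3 comparisons in the order of the report, against 18.7%, 22.5% and 27.4% of 20375 genes. Without a limit on the fold, 29, 32 and 31 of 33 were called, against 76.4%, 75.8% and 82.1% of all genes. With DESeq2 at an adjusted p under 1e-22, the limit in the study's methods, the counts were 9, 14 and 20, against 9.63%, 15.1% and 21.7% of all genes. The 11 calls lost were those of Mmp9, Mmp13 and Mmp15 in Cry/Per_KO relative to Cry/Per/Nr1d_KO as labelled, Mmp9, Mmp13, Mmp15, Adam1a, Adam22 and Adamts9 in Per/Nr1d_KO relative to labelled Cry/Per/Nr1d_KO, and Adam1a and Adamts9 in Per/Nr1d_KO relative to labelled Cry/Per_KO. Leaving out single libraries gave counts of 12 to 12, 20 to 20 and 22 to 23. With chromosome medians subtracted they were 11, 19 and 20, with 5 calls lost, for Mmp13, Mmp14 and Adam15 as given above, and 1 gained, for Adamts14 in Cry/Per_KO relative to Cry/Per/Nr1d_KO as labelled (0.71, with a chromosome 10 median of -0.12). No pairing by replicate number was seen. Between lines, the deviations of same-numbered libraries from their line means correlated at -0.19, -0.08 and -0.02 on the log2 scale. These values do not settle whether the preparations were made in pairs. The block kept the counts at 12, 20 and 22. Genes near 0 counts are limited by depth, and the names of the count sets and the Arntl levels go against the labels of 4 libraries.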
